A study of Mus musculus with 24 samples.

Results

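The genes described here encode the subunits of the oxidative phosphorylation complexes, measured by RNA-seq in the ageing mouse inner ear and in cochlear organoids. Members were taken by name: the nuclear genes whose symbols begin with Ndufa, Ndufb, Ndufc, Ndufs or Ndufv and a digit, Sdha to Sdhd, and those beginning with Uqcr, Cox4 to Cox8 or Atp5, leaving out Ndufa4l2 and Cox4i2. In the organoid table the 13 protein-coding genes of mitochondrial DNA were added. The rule gave 86 of 18440 genes in the inner ear table and 97 of 25190 in the organoid table, 84 nuclear and 13 mitochondrial. Over both tables it gave 99 genes, of which 84 stood in each. By complex, the organoid table held 40 nuclear genes of complex I, 4 of complex II, 8 of complex III, 15 of complex IV and 17 of complex V. A filter on low counts left 83 members for testing in the ear and 95 in the organoids. The members under it were Cox6a2, Cox7b2 and Cox8c in the ear, and Cox6a2 and Cox8b in the organoids. Mitochondrial genes of the ear are not analysed here.

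The 24 libraries came from 2 experiments. The first used male C57BL6/J mice of 3, 11 and 20 months, 4 mice at each age. The labels describe the whole soft tissue of the cochlea after removal of bone, so each library mixes all of its cell types. The second used organoids grown from the cochlear epithelium of newborn wild-type mice, expanded and then differentiated, in 4 groups of 3 libraries: control, TNF-α, lentiviral knockdown of RBM25, and the knockdown with TNF-α. The sample titles call these libraries RBM25 KO, while the protocol describes a knockdown. RBM25 is a splicing factor that binds RNA, and TNF-α is an inflammatory cytokine. The dose and time of TNF-α and the virus given to controls are not stated in the labels. Nothing in the labels says that the organoid replicates came from separate cultures, so their p-values measure the spread between libraries, which may be technical. Total counts ran from 30599012 to 38451292 per ear library and from 33802411 to 37048422 per organoid library.

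Oxidative phosphorylation takes place in the inner mitochondrial membrane. Complex I (NADH dehydrogenase) and complex II (succinate dehydrogenase) pass electrons to ubiquinone, complex III (cytochrome bc1) passes them to cytochrome c, and complex IV (cytochrome c oxidase) passes them to oxygen. Complexes I, III and IV pump protons, and complex V (ATP synthase) uses the gradient to make ATP. Most subunits are encoded in the nucleus, complex II entirely so, while mitochondrial DNA encodes core subunits of the other complexes. Several subunits of complexes IV and V exist as isoforms that differ between tissues. The cochlea depends on this supply of ATP, since the stria vascularis and the sensory cells move ions continuously.

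Levels per transcript length were read from FPKM (fragments per kilobase of transcript, scaled to library total), which the authors deposited beside the counts. In control organoids 6 mitochondrial genes stood above every nuclear member. COX1 was at 7650 ± 311 FPKM (SD, n = 3), CYTB at 5093 ± 261, ND1 at 3126 ± 95.5, ND2 at 2669 ± 247, ND5 at 1641 ± 83.6 and ND4 at 1585 ± 71.1. The highest nuclear member was Atp5b, the catalytic beta subunit of ATP synthase, at 288 ± 4.99 FPKM. Cox4i1 (263 ± 6.93), Atp5a1 (214 ± 2.91), Cox8a (204.3 ± 6.40) and Uqcrh (199 ± 9.20) followed it. Atp5b and Cox4i1 also led the ear at 3 months, with 827 ± 35.4 and 638 ± 28.9 FPKM (SD, n = 4). At the low end of the tested members in control organoids stood Ndufb4c at 1.06 FPKM, Ndufb4b at 1.08 and Ndufs6b at 1.84. They are named after Ndufb4 and Ndufs6 and are counted in complex I by name only. The gene identifier given for Ndufb4b belongs to Rpl3-ps1 in RefSeq, so what that entry measures is uncertain.

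The other 7 mitochondrial genes were listed far lower in the same libraries. COX2 was at 106 ± 16.4 FPKM, COX3 at 56.3 ± 6.11 and ATP6 at 46.9 ± 6.29, and the first pair encodes core subunits of the same enzyme as COX1. ND6 was at 30.3 ± 2.33, ND3 at 17.0 ± 1.24, ND4L at 16.3 ± 2.62 and ATP8 at 10.8 ± 1.63. A copy of part of the mitochondrial genome lies on chromosome 1 of the reference (GRCm38, chr1:24611535-24616197, minus strand), where GENCODE annotates 7 pseudogenes. Over their aligned length COX2 (681 bases), ATP6 (678), COX3 (783), ND4L (294) and ND4 (876 of 1378) matched the copy with 0 mismatches, ND3 (345) with 1, and COX1 (492) with 6. Within aligned stretches where gene and copy do not differ, a read that matches one therefore has the same bases as the other. The labels do not state how such reads were counted. The stretches below show where gene and copy differ. Each runs 5′ to 3′ from GENCODE transcripts of GRCm38, with capitals at the bases that differ.

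ND3, bases 1 to 60: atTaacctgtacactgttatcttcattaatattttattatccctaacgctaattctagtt
Chromosome 1 copy of ND3 (Gm28438): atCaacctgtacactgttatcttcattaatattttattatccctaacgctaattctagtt
COX1, bases 1054 to 1113: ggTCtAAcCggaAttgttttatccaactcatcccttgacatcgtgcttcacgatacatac
Chromosome 1 copy of COX1 (Gm29216): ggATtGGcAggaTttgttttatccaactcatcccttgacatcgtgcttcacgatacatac

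Counted from the first base of each transcript, the difference in ND3 is T3C, and those in COX1 are T1056A, C1057T, A1059G, A1060G, C1062A and A1066T. The share of all 100-base stretches of a gene found in the chromosome 1 copies was 99.9% for COX3, 99.5% for COX2 and ATP6, 98.5% for ND4L, 97.6% for ND3, 60.8% for ND4 and 26.3% for COX1. It was 0 for the rest. Over 50-base stretches and all other annotated transcripts, the share was 51.1% for COX1, 8.19% for ND2, 7.61% for ND5 and 0 for CYTB and ND1. ND6 and ATP8 were low without any share of either kind, but only annotated transcripts were searched. ATP8 (MT:7766-7969) lies between COX2 (MT:7013-7696) and ATP6 (MT:7927-8607). On chromosome 1 the copies of COX2 and ATP6 are neighbours, and the unannotated bases between them were not searched. ATP8 also overlaps ATP6 on the same strand. ND6 overlaps ND5 on the opposite strand, and the library kit (TruSeq v2) does not mark strand. Whether shared sequence set these levels was not tested. Levels of COX2, COX3, ATP6, ATP8, ND3, ND4, ND4L and ND6, and the part of COX1 that is shared, are therefore uncertain, and COX1, CYTB, ND1, ND2, ND4 and ND5 held over 99.0% of mitochondrial counts in every organoid library. Of the nuclear members, Atp5l was the one gene with over 50% of its 50-base stretches in other transcripts (84.8%), and its counts carry the same doubt. Among nuclear members with values here, Atp5a1, Atp5d, Atp5l, Atp5o, Cox4i1, Cox5a, Ndufa9, Ndufs1, Ndufs3 and Uqcrc2 share exonic bases with an opposite-strand gene. So do members without values here, among them Atp5j, Cox6c, Ndufa11, Ndufa13, Ndufb5, Ndufb6 and Uqcrb. Without strand, reads of such overlapping genes cannot be told apart there.

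**Figure D1:**
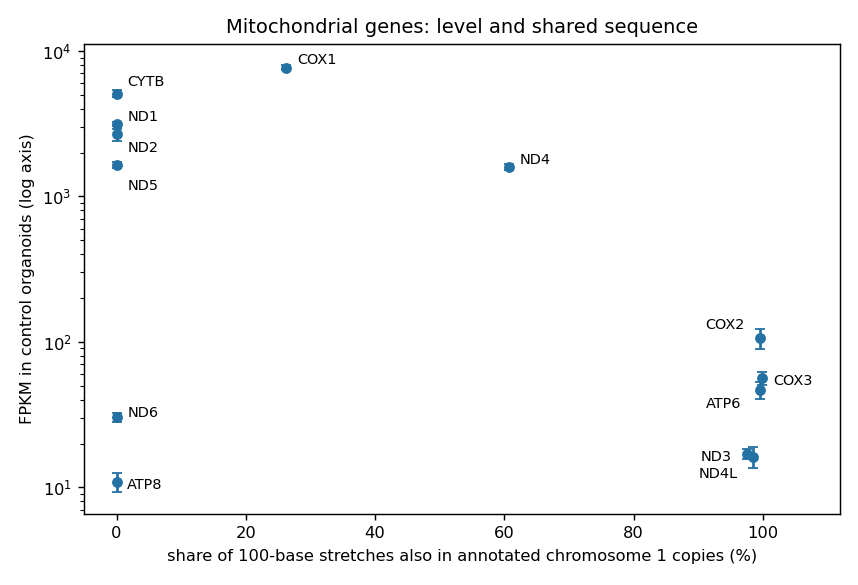
FPKM of the 13 mitochondrial genes in control organoids (vertical, log axis, mean ± SD of 3 libraries) against the share of each gene's 100-base stretches found in annotated chromosome 1 copies (horizontal, percent). COX1 and CYTB are highest, the 5 genes with over 97.0% shared lie between 16.3 and 106 FPKM, and ND6 and ATP8 are low with 0 shared.

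Rbm25, the targeted gene, was at 142, 148 and 144 CPM (counts scaled to library size, with TMM factors) in controls and at 96.9, 94.2 and 92.7 in the knockdown. With TNF-α it was at 150, 163 and 173 without and at 103, 122 and 108 with the knockdown. The knockdown libraries were lower in every case, by 0.61 ± 0.06 log2 units without TNF-α (adjusted p = 1.0e-07) and 0.55 ± 0.06 with it (adjusted p = 4.6e-07). Other genes also separated the organoid groups. Summed markers of supporting cells and otic epithelium were at 8112 to 8455 CPM in controls, 4042 to 4603 with TNF-α, 7248 to 7514 with the knockdown and 4142 to 4467 with both, and 9 of 9 were detected. Summed hair cell markers (8 of 8 detected) were at 137 to 152, 106 to 138, 314 to 453 and 203.99 to 272 CPM. Summed cell cycle markers were at 41.9 to 46.0 CPM in controls and at 54.4 to 62.8 in the other 9 libraries, so they were higher in each library where the nuclear member sum was higher than in controls. Summed mucosal markers were at 32.9 to 37.7, 35.3 to 41.6, 110 to 123 and 61.9 to 89.2 CPM, and neuron markers at 29.9 to 32.9, 36.5 to 42.6, 70.1 to 105 and 61.0 to 82.2, in the same order of groups. Their part in the results below was not tested, and in whole libraries fewer cells of a type and less RNA per cell cannot be told apart.

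TNF-α against control was the first organoid comparison. Of 82 nuclear members tested, 63 were higher and 1 was lower at a Benjamini-Hochberg adjusted p under 0.05 in edgeR's quasi-likelihood test over all genes, where 23.3% of 15888 genes were higher and 24.2% lower. The median log2 fold change of the nuclear members was 0.24, against -0.02 for all genes tested. Genes of every complex were among those that rose: 27 of 40 in complex I, 3 of 4 in complex II, 6 of 8 in complex III, 11 of 13 in complex IV and 16 of 17 in complex V. The medians of the complexes lay between 0.16 (complex II) and 0.27 (complex V).

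In complex I, Ndufv2, a flavoprotein-arm subunit with an iron-sulfur cluster, rose by 0.35 ± 0.05 log2 units (SE, adjusted p = 3.6e-05) and the accessory subunit Ndufa9 by 0.34 ± 0.05. In complex II the membrane anchor Sdhd stood at 52.8, 55.2 and 59.4 CPM in controls and at 74.1, 69.2 and 64.5 with TNF-α. These groups did not overlap, and the difference was 0.31 ± 0.07 (adjusted p = 0.00085). Sdha, the flavoprotein that oxidises succinate, did not pass (0.03, adjusted p = 0.57). Uqcrc2, a core protein of complex III, was at 117, 114 and 117 CPM in controls and at 160, 147 and 146 with TNF-α, a difference of 0.38 ± 0.05 (adjusted p = 8.2e-06). Uqcrfs1, the Rieske iron-sulfur protein of the same complex, rose by 0.33.

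In complex IV, Cox7a2l, which binds complexes III and IV into supercomplexes, was at 176, 183 and 181 CPM in controls and at 224, 218 and 213 with TNF-α (0.28 ± 0.04, adjusted p = 2.8e-05). The one member that fell was Cox7a1, an isoform best known from heart and skeletal muscle. It was at 4.82, 4.94 and 4.68 CPM in controls and at 3.37, 3.13 and 2.86 with TNF-α. The 2 groups were apart, with a difference of -0.62 ± 0.16 (adjusted p = 0.0037). Cox7a2, the widely expressed isoform, moved the other way (0.35 ± 0.08, adjusted p = 0.0014). In complex V, Atp5g1, one of 3 genes for the c-ring of ATP synthase, was at 34.8, 33.4 and 31.0 CPM in controls and at 50.9, 45.3 and 40.1 with TNF-α. Its rise of 0.46 ± 0.08 (adjusted p = 8.5e-05) exceeded those of Atp5g2 (0.32 ± 0.06) and Atp5g3 (0.16 ± 0.06), although these differences between genes were not tested. Atp5mpl, a small ATP synthase subunit, rose by 0.36 ± 0.06, and Atp5pb, the peripheral stalk b subunit, by 0.28 ± 0.05. The call of Atp5g3 was lost without control replicate 1 (adjusted p = 0.12), control replicate 2 (0.059) or TNF-α replicate 1 (0.065).

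Of the 13 mitochondrial genes, 3 rose with TNF-α and 0 fell (4 and 0 at an unadjusted p under 0.05 in edgeR), a share near that of all genes. ND1, a core subunit of complex I, went from 2964, 3134 and 3153 CPM to 3651, 3955 and 3851, a difference of 0.31 ± 0.08 (adjusted p = 0.0050). The groups did not overlap. COX1, which holds the catalytic site of complex IV, differed by 0.21 ± 0.07 (adjusted p = 0.013), and this call was lost without control replicate 1 (adjusted p = 0.081). ND3 differed by 0.49 ± 0.15 (adjusted p = 0.013) at 6.08 CPM in controls, and that call was lost without TNF-α replicate 1 (adjusted p = 0.094) or control replicate 3 (adjusted p = 0.055). CYTB, the catalytic core of complex III, gave 0.17 (adjusted p = 0.062). The mitochondrial median was 0.17.

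Genes linked to the same pathway were counted from fixed lists. Of 14 carriers and subunits outside the name rule, 6 rose and 1 fell. Among them cytochrome c (Cycs) rose by 0.59 ± 0.08, while cytochrome c1 (Cyc1), a complex III subunit, gave 0.00 ± 0.05. Of 46 assembly factors 12 rose (26.1%, near the 23.3% of all genes) and 1 fell, and of 19 genes of the TCA cycle and pyruvate dehydrogenase, which feed electrons into the chain, 16 rose and 1 fell. Of 78 mitochondrial ribosomal protein genes 50 rose and 1 fell, and of 75 cytosolic ribosomal protein genes all 75 rose, with a median of 0.51. For expression and upkeep of mitochondrial DNA, 11 of 26 rose and 3 fell. The mitochondrial RNA polymerase Polrmt was among the latter (-0.37 ± 0.07).

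**Figure D2:**
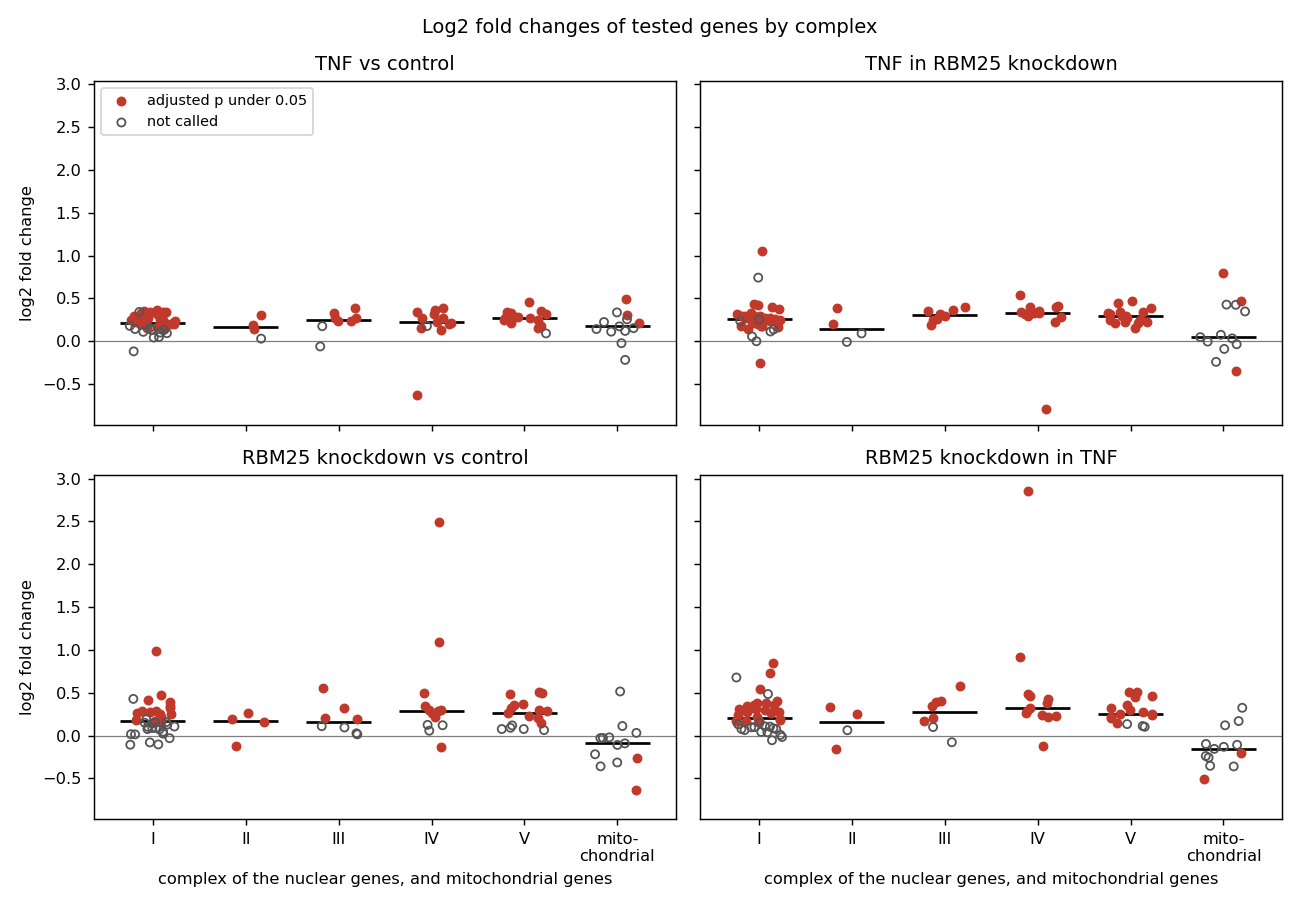
Log2 fold changes of tested members in 4 organoid comparisons, by complex for nuclear genes and together for mitochondrial genes; each point is a gene, filled red where the adjusted p was under 0.05, and the bar is the median. Nuclear medians of every complex lie above 0 in all 4 panels, from 0.15 to 0.33, while mitochondrial medians lie between -0.15 and 0.17.

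Nuclear members are short: their median transcript length in the organoid table was 759 bases, against 3680 for all genes tested. Length moved with the calls, so the counts were also read within length classes. Under 1 kb, 73.5% of nuclear members rose with TNF-α and 30.6% of the 849 other genes did. Between 1 and 2 kb these shares were 87.5% and 27.5%. The same classes gave 57.1% and 17.2%, and 62.5% and 21.2%, for the knockdown against control. Within these 2 classes the members' share was more than 2 times that of other genes in either comparison. Between 2 and 4 kb, with 8 members, the shares were 62.5% and 24.3% with TNF-α. For the knockdown in that class they were 50% and 25.6%, and 12.5% of the members fell. Expression level was not matched.

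TNF-α was tested a second time in the knockdown organoids, in libraries that the first comparison did not use. Of the nuclear members 71 rose and 2 fell, where 22.8% of all genes rose and 22% fell. The 57 that rose in both tests make 90.5% of the 63 and 80.3% of the 71. The same overlap over all genes is not given, so these shares do not by themselves single out the members. The median was 0.28, and by complex 32 of 40, 2 of 4, 8 of 8, 12 of 13 and 17 of 17 rose from complex I to V. Uqcrfs1 was at 83.3, 86.4 and 94.1 CPM with the knockdown alone and at 111, 119 and 118 with TNF-α added (0.40 ± 0.05, adjusted p = 4.2e-06). Cox7a2l gave 0.28 in this background too (adjusted p = 2.8e-05), as Atp5g1 gave 0.47 (adjusted p = 5.8e-05) and Uqcrc2 0.20 (adjusted p = 0.0053). Cox6b1, a complex IV subunit on the intermembrane side, rose by 0.42 ± 0.06, and Atp5j2, subunit f of ATP synthase, by 0.45 ± 0.06. The complex I subunits Ndufb1 and Ndufa4 rose by 0.44 ± 0.07 and 0.40 ± 0.07. Ndufa4 is placed in complex I by its name and is also known as a complex IV subunit.

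The members that fell were Cox7a1 and Ndufa1. Cox7a1 went from 9.94, 10.6 and 10.1 CPM to 6.77, 6.68 and 4.26 (-0.79 ± 0.15, adjusted p = 0.00027), below in every library as in the first test. Ndufa1, an X-linked accessory subunit of complex I, went from 64.3, 78.4 and 82.9 to 62.9, 62.7 and 63.2 (-0.26 ± 0.08, adjusted p = 0.012). Its groups were separated by less than 2 CPM, and the call was lost without knockdown replicate 2 or 3 (adjusted p = 0.053 and 0.067). Ndufs6b was called higher (1.05 ± 0.31, adjusted p = 0.0088) at 0.99, 0.86 and 0.88 CPM against 2.38, 1.81 and 1.51. At this level the values rest on few counts, and without the first library of both treatments the adjusted p was 0.062.

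Of the mitochondrial genes, ND1 and ATP8 rose and ND5 fell. ND1 was at 2202, 2704 and 2833 CPM with the knockdown and at 3366, 3947 and 3397 with TNF-α added (0.47 ± 0.08, adjusted p = 0.00018), so that it rose in both tests. ND5, another core subunit of complex I, was at 2808, 3176 and 3090 CPM and then at 2256, 2244 and 2617, a difference of -0.35 ± 0.07 (adjusted p = 0.00045). Its groups did not overlap. ATP8 gave 0.79 ± 0.24 (adjusted p = 0.012), and 0.43 (adjusted p = 0.14) without replicate 2 of the combined group. In the fixed lists, 9 of 14 carriers and other subunits rose and 1 fell, 16 of 46 assembly factors rose (34.8%, against 22.8% of all genes) and 1 fell, 52 of 78 mitochondrial and 74 of 75 cytosolic ribosomal protein genes rose and 0 fell.

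Knockdown of RBM25 against control gave 48 nuclear members higher and 2 lower, where 24.4% of all genes were higher and 28.2% lower. The median was 0.19, against -0.03 for all genes. From complex I to V, 20 of 40, 3 of 4, 4 of 8, 9 of 13 and 12 of 17 rose. Libraries with the knockdown also held more hair cell marker RNA, as given above, and 7 of 8 of those markers rose and 1 fell.

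The widest changes were in Cox6b2, Cox7a1 and Ndufa1. Cox6b2 (GRCm38, chr7:4751792-4753094), an isoform of Cox6b known from testis, was at 2.61, 3.29 and 3.21 CPM in controls and at 14.9, 18.7 and 17.7 with the knockdown, a 5.63-fold difference (log2 2.49 ± 0.17, adjusted p = 6.3e-09). Cox7a1 (chr7:30184171-30186030) rose from the control values above to 9.94, 10.6 and 10.1 CPM (1.09 ± 0.15, adjusted p = 8.2e-06). Both were low in these libraries beside the widely expressed forms. Cox6b1 was at 84.6, 83.2 and 89.0 CPM in controls, and per length Cox6b2 was at 4.86 and Cox7a1 at 10.1 FPKM. Skeletal muscle markers, a list of 13 with 1 above a mean of 1 CPM, summed to between 1.59 and 7.21 CPM over all organoid libraries. Ndufa1 (chrX:37187588-37191238) was at 36.4, 38.95 and 38.7 CPM in controls and at 64.3, 78.4 and 82.9 with the knockdown (0.98 ± 0.08, adjusted p = 1.7e-08). No knockdown library of these 3 genes reached down to a control value.

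Among the remaining genes, Uqcr10, a small subunit of complex III, went from 33.4, 35.4 and 36.7 CPM to 47.7, 51.1 and 56.0 (0.55 ± 0.07, adjusted p = 2.5e-06). Atp5b went from 551, 568 and 557 to 749, 789 and 815 CPM (0.49 ± 0.05, adjusted p = 4.0e-07). Atp5o, the stalk subunit that confers oligomycin sensitivity, rose by 0.51 ± 0.06, Atp5md by 0.50 ± 0.07 and Cox7c by 0.50 ± 0.08. The groups of Uqcr10 and Atp5b lay clear of each other. Sdha and Cox7a2l were the nuclear members that fell. Sdha was at 244, 246 and 258 CPM in controls and 227, 232 and 230 with the knockdown (-0.12 ± 0.04, adjusted p = 0.023). Cox7a2l was at 158, 165 and 171 CPM with the knockdown (-0.13 ± 0.04, adjusted p = 0.017). Both differences were under 10% in size, and both calls were lost with DESeq2 size factors (adjusted p = 0.093 and 0.066) and with no count filter (0.33 and 0.24). They were also lost without knockdown replicate 1 (adjusted p = 0.14 and 0.19), Sdha without control replicate 3 (adjusted p = 0.11) and Cox7a2l without control replicate 2 (adjusted p = 0.061).

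Of the mitochondrial genes, 0 rose and 2 fell (0 and 3 at an unadjusted p under 0.05 in edgeR). ND1 went from 2964, 3134 and 3153 CPM to 2202, 2704 and 2833 (-0.26 ± 0.08, adjusted p = 0.014), and without knockdown replicate 1, the lowest, the adjusted p was 0.096. ND2, a core membrane subunit of complex I, went from 3025, 2967 and 2571 to 1620, 1993 and 1893 (-0.64 ± 0.23, adjusted p = 0.043). Its call was lost on leaving out any one of the 6 libraries (adjusted p from 0.056 to 0.14), though the groups did not overlap. COX1 gave 0.11 (adjusted p = 0.16) and CYTB -0.11 (adjusted p = 0.23). In the lists, 8 of 14 carriers and other subunits rose and 0 fell, 8 of 19 TCA cycle genes rose and 0 fell, and 15 of 78 mitochondrial ribosomal protein genes rose (19.2%, below the 24.4% of all genes) and 5 fell. Assembly factors went 4 up and 9 down of 46, genes for mitochondrial DNA expression 1 up and 5 down of 26, and cytosolic ribosomal protein genes 3 up and 18 down of 75. For these 3 lists the shares in both directions were below the 24.4% and 28.2% of all genes.

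In TNF-α-treated organoids the knockdown was tested again, in the other 6 libraries. Of the nuclear members 57 rose and 2 fell, where 25.4% of all genes rose and 26.9% fell. The 43 that rose in both tests of the knockdown make 89.6% of the 48 and 75.4% of the 57, and the 2 that fell, Sdha and Cox7a2l, were the same in both. Here too the overlap over all genes is not given. From complex I to V, 23 of 40, 2 of 4, 6 of 8, 12 of 13 and 14 of 17 rose. Cox6b2 was at 4.75, 2.57 and 2.98 CPM with TNF-α alone and at 24.8, 25.2 and 24.6 with both, a 7.23-fold difference (log2 2.85 ± 0.17, adjusted p = 1.3e-09). Cox7a1 gave 0.92 ± 0.16 (adjusted p = 9.6e-05), and Ndufa1 went from 38.2, 32.8 and 34.1 CPM to 62.9, 62.7 and 63.2 (0.84 ± 0.08, adjusted p = 1.4e-07). These 3 genes thus had the widest positive differences in both tests among members at 1 CPM or more that passed.

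Uqcr10 gave 0.58 ± 0.07 (adjusted p = 1.4e-06), Atp5b 0.47 ± 0.05 (adjusted p = 8.4e-07), and Atp5g3 0.51 ± 0.06. Sdha fell by 0.16 ± 0.04 (adjusted p = 0.0041) and Cox7a2l by 0.12 (adjusted p = 0.019). The Cox7a2l call was lost when only these libraries were fitted (adjusted p = 0.074) and without ribosomal protein genes in the scaling (adjusted p = 0.12). ND5 was at 3530, 3389 and 3150 CPM with TNF-α and at 2256, 2244 and 2617 with both (-0.50 ± 0.07, adjusted p = 8.5e-06), with no overlap. CYTB fell by 0.21 ± 0.07 (adjusted p = 0.026), a call lost without TNF-α replicate 2 (adjusted p = 0.11) or the first library of both treatments (adjusted p = 0.056). Of the mitochondrial genes, 2 were called lower in each test of the knockdown and 0 in both. ND1, ND2 and CYTB had values below 0 in both tests (-0.26 and -0.10, -0.64 and -0.35, -0.11 and -0.21). With TNF-α, ND1 and ND2 did not pass (adjusted p = 0.34 and 0.23). For ND1, ND2 and CYTB the difference between the 2 tests did not pass either (adjusted p = 0.42, 0.64 and 0.61), which does not show that the effects were equal.

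**Figure D3:**
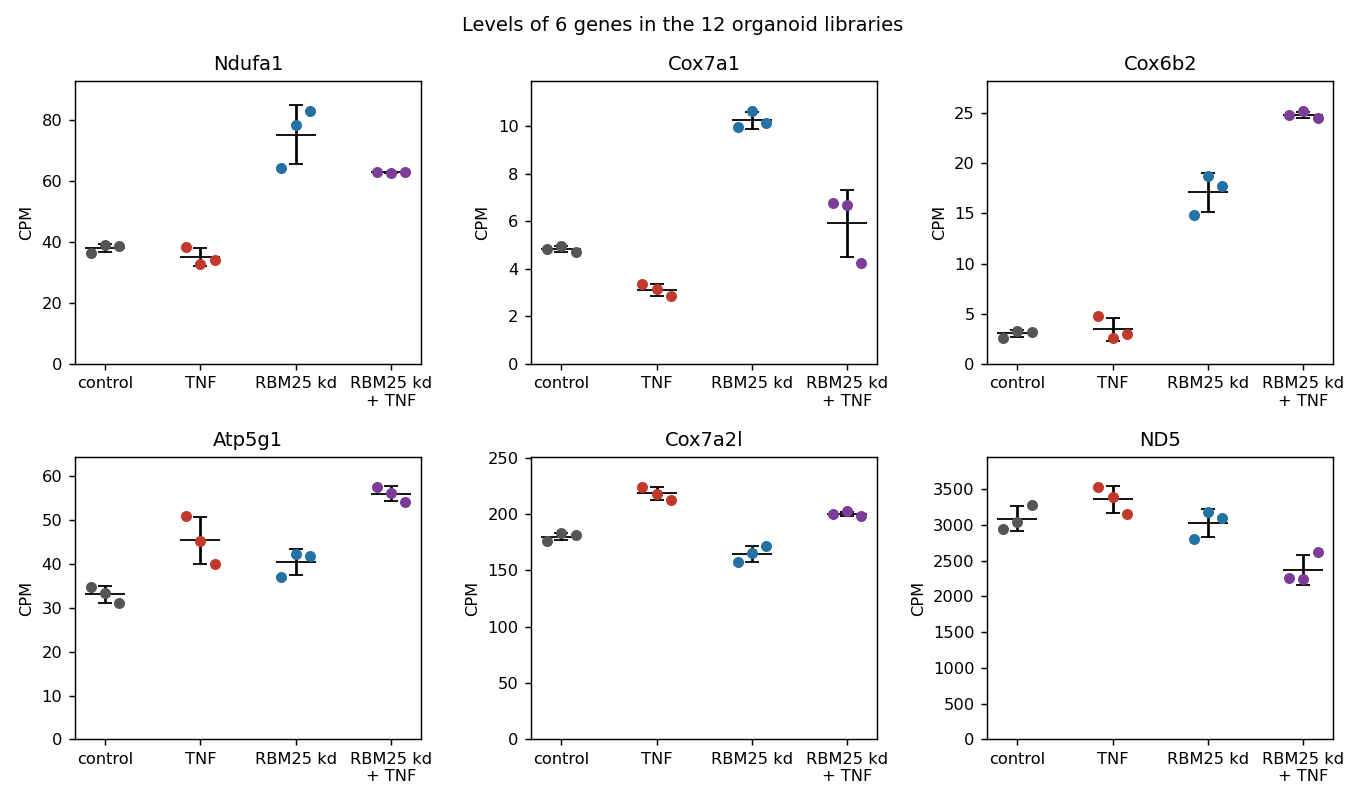
CPM of Ndufa1, Cox7a1, Cox6b2, Atp5g1, Cox7a2l and ND5 in each of the 12 organoid libraries; points are libraries and bars give mean ± SD of 3. Ndufa1 and Cox6b2 are higher in all 6 knockdown libraries than in the other 6, and ND5 is lowest with both treatments (2244 to 2617 CPM).

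Nuclear and mitochondrial genes were compared by their summed CPM in each library. The nuclear sum was 6029 ± 114 CPM in controls (SD, n = 3), 7011 ± 323 with TNF-α, 6959 ± 391 with the knockdown and 8274 ± 90.1 with both. The mitochondrial sum was 29648 ± 1062, 33846 ± 1489, 28504 ± 2289 and 29558 ± 1553. The ratio of the second to the first was 4.83, 4.93 and 5.00 in the controls and 4.60, 5.06 and 4.84 with TNF-α, where the groups overlap. It was 3.95, 4.28 and 4.05 with the knockdown and 3.52, 3.77 and 3.43 with both. All 6 knockdown libraries were below all 6 others. Relative to control the mean ratio was 0.98 with TNF-α, 0.83 with the knockdown and 0.73 with both. With the 5 mitochondrial genes that lie outside the chromosome 1 copy (CYTB, ND1, ND2, ND5, ND6) these values were 0.98, 0.75 and 0.69. The ratio is given as a description, with no test.

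**Figure D4:**
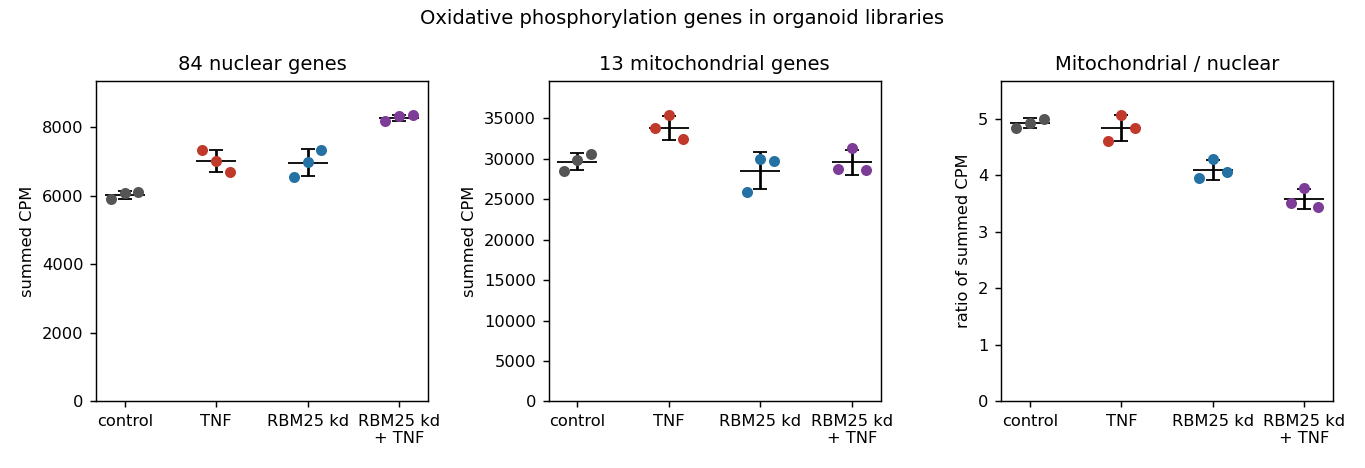
Summed CPM of 84 nuclear genes, of 13 mitochondrial genes, and their ratio in each of the 12 organoid libraries; points are libraries and bars give mean ± SD of 3. The nuclear sum is highest with both treatments (8274 CPM), and the ratio is at most 4.28 in all knockdown libraries.

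Whether TNF-α acted differently with and without the knockdown was tested by the interaction. Of the nuclear members 4 passed as higher and 0 as lower, and of the mitochondrial genes 1 passed as lower and 0 as higher, where 7.54% of all genes were higher and 4.81% lower. At an unadjusted p under 0.05 in edgeR, 5 nuclear members were higher and 3 lower, and 2 mitochondrial genes were lower. Uqcrc1, a core protein of complex III, was at 100.5, 97.4 and 102.8 CPM in controls and 88.9, 99.3 and 100.3 with TNF-α, but at 100.2, 102.3 and 103.9 with the knockdown and 124.8, 118.2 and 123.6 with both. The libraries with both treatments lay above all others, and the difference between the 2 effects was 0.32 ± 0.07 (adjusted p = 0.0061). For ND5 this difference was -0.47 ± 0.10 (adjusted p = 0.0041). Atp5d, the delta subunit of ATP synthase (0.24 ± 0.07, adjusted p = 0.023), Ndufs7, a core complex I subunit with an iron-sulfur cluster (0.28 ± 0.08, adjusted p = 0.032), and Ndufa8 (0.23 ± 0.07, adjusted p = 0.047) were the others. Their calls were lost on leaving out any 1 of 8 libraries for Atp5d (adjusted p up to 0.11), any of 7 for Ndufs7 (0.14) and any of the 12 for Ndufa8 (0.19), while those of Uqcrc1 and ND5 were kept in every such fit. The count fell from 5 to 3 without TNF-α replicate 2 or any control library, and to 2 without knockdown replicate 2 or without replicate 1 or 3 of the combined group.

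The promoters of the nuclear members were searched for motifs of factors known to act on respiratory genes. RefSeq windows (GRCm38.p6, 250 bases before to 50 after each start) were found for 68 members, in 73 windows, and read on both strands for exact matches. GCATGCGC, the core of the NRF1 site, was in 10 member windows (13.7%) and in 2.71% of all 32851 windows. CCGGAAGT, an ETS-family site of the kind bound by GABPA, was in 5 (6.85%, against 3.89%), and AAGATGGCG, a YY1 site, in 7 (9.59%, against 1.40%). No motif contains another. A match here describes letters and does not show binding. Members that rose were not compared with those that did not, and a link between the motifs and the treatments was not tested. For 64 of 71 windows checked, the bases after the start were found in a transcript of the gene. The promoters of 3 members are printed as the 250 bases before the start, 5′ to 3′ on the gene's strand, with motif matches in capitals: Ndufa8, which passed the interaction, Uqcr11, which rose in all 4 organoid comparisons, and Ndufa1, which changed most among complex I genes with the knockdown.

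Ndufa8, chr2:36049339-36049588, minus strand: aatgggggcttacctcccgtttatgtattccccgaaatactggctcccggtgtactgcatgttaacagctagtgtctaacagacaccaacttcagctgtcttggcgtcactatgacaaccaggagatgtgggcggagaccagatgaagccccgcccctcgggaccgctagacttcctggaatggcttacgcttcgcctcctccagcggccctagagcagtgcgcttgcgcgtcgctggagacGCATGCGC
Uqcr11, chr10:80406822-80407071, minus strand: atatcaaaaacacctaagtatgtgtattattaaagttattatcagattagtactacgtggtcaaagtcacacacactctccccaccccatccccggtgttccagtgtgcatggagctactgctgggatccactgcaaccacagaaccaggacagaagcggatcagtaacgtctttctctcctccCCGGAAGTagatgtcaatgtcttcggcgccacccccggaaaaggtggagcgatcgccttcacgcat
Ndufa1, chrX:37191239-37191488, minus strand: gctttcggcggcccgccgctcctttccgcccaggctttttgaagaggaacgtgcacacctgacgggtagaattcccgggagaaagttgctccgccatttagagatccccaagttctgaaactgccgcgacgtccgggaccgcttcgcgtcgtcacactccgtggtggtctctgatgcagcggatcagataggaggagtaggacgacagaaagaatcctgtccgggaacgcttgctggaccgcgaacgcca

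The NRF1 core ends at the last base before the Ndufa8 start. Uqcr11 has an ETS match within the printed bases, and its NRF1 match reaches past the start and is not marked. None of the 3 motifs was found in the Ndufa1 window. Uqcr11, a small subunit of complex III, rose by 0.24 ± 0.08 with TNF-α and 0.32 ± 0.08 with TNF-α in the knockdown, and by 0.33 ± 0.08 and 0.41 ± 0.08 in the tests of the knockdown.

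In the ageing ear the nuclear members were tested between 20 and 3 months. Of 83, 14 were lower (16.9%) and 0 were higher, where 10.7% of 15525 genes were lower and 12% higher. At an unadjusted p under 0.05 in edgeR 36 were lower and 1 higher, and DESeq2 called 22 lower and 1 higher. The count of calls was 6 with limma, 6 with the replicate number as a block and 4 when only these 8 libraries were fitted. Shares of all genes at the unadjusted threshold or in these other fits are not given, so such counts do not by themselves single out the members. The median log2 fold change was -0.13, against 0.01 for all genes, and 76 of 83 fitted values were below 0. The calls were 8 of 40 in complex I, 0 of 4 in complex II, 1 of 8 in complex III, 4 of 14 in complex IV and 1 of 17 in complex V. Summed over 86 members the level was 13382 ± 349 CPM at 3 months (SD, n = 4), 13299 ± 443 at 11 months and 12157 ± 712 at 20 months.

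Ndufv1 (GRCm38, chr19:4007499-4012755), the complex I subunit that binds NADH, was at 210, 200, 200 and 202 CPM at 3 months and at 162, 163, 175 and 157 at 20 months. The groups did not overlap, and the level fell by 19.1% (log2 -0.31 ± 0.05, adjusted p = 0.0024). Uqcrc1 (chr9:108936648-108949641) was at 282, 264, 286 and 276 CPM and at 215, 232, 248 and 222, lower by 17.2% (-0.27 ± 0.06, adjusted p = 0.0059). These 2 calls were kept under every alternative tried. Cox5a, a nuclear subunit of complex IV, was at 230, 214, 225 and 212 CPM and at 177, 184, 210 and 171, lower by 15.7% (-0.25 ± 0.06, adjusted p = 0.017). Its call was lost without 20-month replicate 1 or 4 (adjusted p = 0.051 and 0.053).

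Ndufs3 (-0.21, adjusted p = 0.025), Cox7b (-0.19, adjusted p = 0.039) and Atp5g3 (-0.21, adjusted p = 0.048) also fell, and the single values of Cox7b and Atp5g3 overlapped between ages. Cox8b, the complex IV isoform of heart, skeletal muscle and brown fat, was at 36.3, 45.4, 40.6 and 44.5 CPM at 3 months, 19.5, 16.4, 14.0 and 26.2 at 11 months, and 26.8, 32.0, 15.7 and 18.5 at 20 months. All 3-month libraries were above all others. It fell by 44.2% from 3 to 20 months (-0.84 ± 0.23, adjusted p = 0.022), with an adjusted p of 0.061 without 20-month replicate 4 and of 0.22 with a muscle and bone score as a covariate. Summed skeletal muscle markers, 13 of 13 tested, were at 26.1, 160, 20.2 and 70.8 CPM at 3 months, 5.46 to 7.48 at 11 months and 12.6 to 25.5 at 20 months. In that order the same 3-month libraries had 36.3, 45.4, 40.6 and 44.5 CPM of Cox8b. The 2 with the most muscle marker RNA had the 2 highest Cox8b values, but that with the least exceeded replicate 1. At 20 months the muscle marker sums were 25.5, 16.7, 19.3 and 12.6 CPM, in the library order of the Cox8b values above. There the highest Cox8b value (32.0 CPM) went with 16.7 CPM of muscle markers. Apart from the covariate, the part of muscle RNA was not tested.

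The number of calls moved with single libraries. It was 9, 8, 6 and 6 without 3-month replicates 1 to 4, and 4, 9, 22 and 2 without 20-month replicates 1 to 4. Of the related lists, 9 of 19 TCA cycle genes (47.4%) and 5 of 10 ATP and phosphate carriers and uncouplers fell, and 1 and 0 rose, beside the 10.7% of all genes that fell. The shares were nearer to that of all genes for assembly factors (8 of 46, 17.4%) and mitochondrial ribosomal proteins (9 of 78, 11.5%), of which 0 rose. Neuron markers fell in 6 of 8 genes, with sums of 11287 to 14470 CPM at 3 months and 7510 to 10864 at 20 months, and macrophage markers rose in 8 of 8. Summed fibrocyte markers were at 7339 to 10258 CPM at 3 months and 4337 to 7080 at 20 months, without overlap, and 1 of 5 passed as lower. Although the labels describe removal of bone, summed bone markers were at 2484 to 4497 CPM over all ear libraries. Summed cerebellum and brain markers were at 162 to 510 CPM at 3 months, 927 to 1158 at 11 months and 166 to 1478 at 20 months. Summed mucosal epithelium markers were at 1017, 1051, 47.4 and 555 CPM at 20 months. Member sums in the same order were 11977, 12419, 12956 and 11274 CPM. Replicate 3 was thus lowest in the first and highest in the second, but the lowest member sum was not in the most mucosal library. Replicate 3 was also the highest of its age in neuron markers (10864 CPM). With a mucosal score as a covariate 3 members were called lower, and with a muscle and bone score 5. The share of all genes called in these fits, or without single libraries, is not given. A lower count there does not by itself single out the members. The part of these cell types in the members' difference was otherwise not tested.

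Between 20 and 11 months 12 members were lower and 0 higher, where 7.9% of all genes were lower and 7.87% higher. At an unadjusted p under 0.05 in edgeR 27 were lower and 1 higher, and DESeq2 called 19 lower and 0 higher. For these 2 counts the shares of all genes are not given. Uqcrc1 differed by -0.30 ± 0.06 (adjusted p = 0.0097), Ndufs1, the largest complex I subunit of the peripheral arm, by -0.32 ± 0.07 (adjusted p = 0.016), Ndufv1 by -0.23 (adjusted p = 0.017) and Cox5a by -0.26 (adjusted p = 0.022). Ndufs1 was at 230, 226, 240 and 233 CPM at 11 months and at 175, 190, 203 and 178 at 20 months, with no overlap, and at 240, 188, 221 and 218 at 3 months, where it did overlap. Ndufa5, Ndufa9, Ndufa10, Uqcrc2, Atp5g3, Atp5b and Atp5g1 also fell, with log2 values between -0.29 and -0.23. No member was called with either marker score as a covariate, where 1 gene at most of the whole table was called, and the count ran from 2 to 21 when single libraries were left out. It was 7, 3 and 5 without 11-month replicates 1, 3 and 4, and 3, 7, 21 and 2 without 20-month replicates 1 to 4.

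Between 11 and 3 months 1 member was lower and 0 higher, where 0.58% of all genes were lower and 0.979% higher. At an unadjusted p under 0.05 in edgeR 6 were lower and 1 higher, and DESeq2 called 1 in each direction, with no share of all genes given. The member called lower in the main test was Cox8b (-1.13 ± 0.23, adjusted p = 0.037). Its call remained on leaving out 11-month replicate 4 but on leaving out none of the other 7 libraries (adjusted p from 0.059 to 0.11). The 3- and 20-month values of these members rest on libraries shared between the 3 comparisons of ages. Of the isoforms raised by the knockdown in organoids, Cox7a1 in the ear was at 7.60, 14.3, 15.2 and 9.43 CPM at 3 months and 12.5, 15.1, 9.60 and 8.10 at 20 months, and Cox6b2 was at 5.22, 6.86, 6.50 and 5.68 and at 9.81, 5.39, 9.93 and 10.3. Their ranges overlapped between these ages. At 11 months Cox6b2 was at 9.27, 10.4, 7.76 and 10.2 CPM, above every 3-month library, though the difference did not pass (0.63 ± 0.19, unadjusted p = 0.0057, adjusted p = 0.11 in edgeR). Neither gene was called between any 2 ages.

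**Figure D5:**
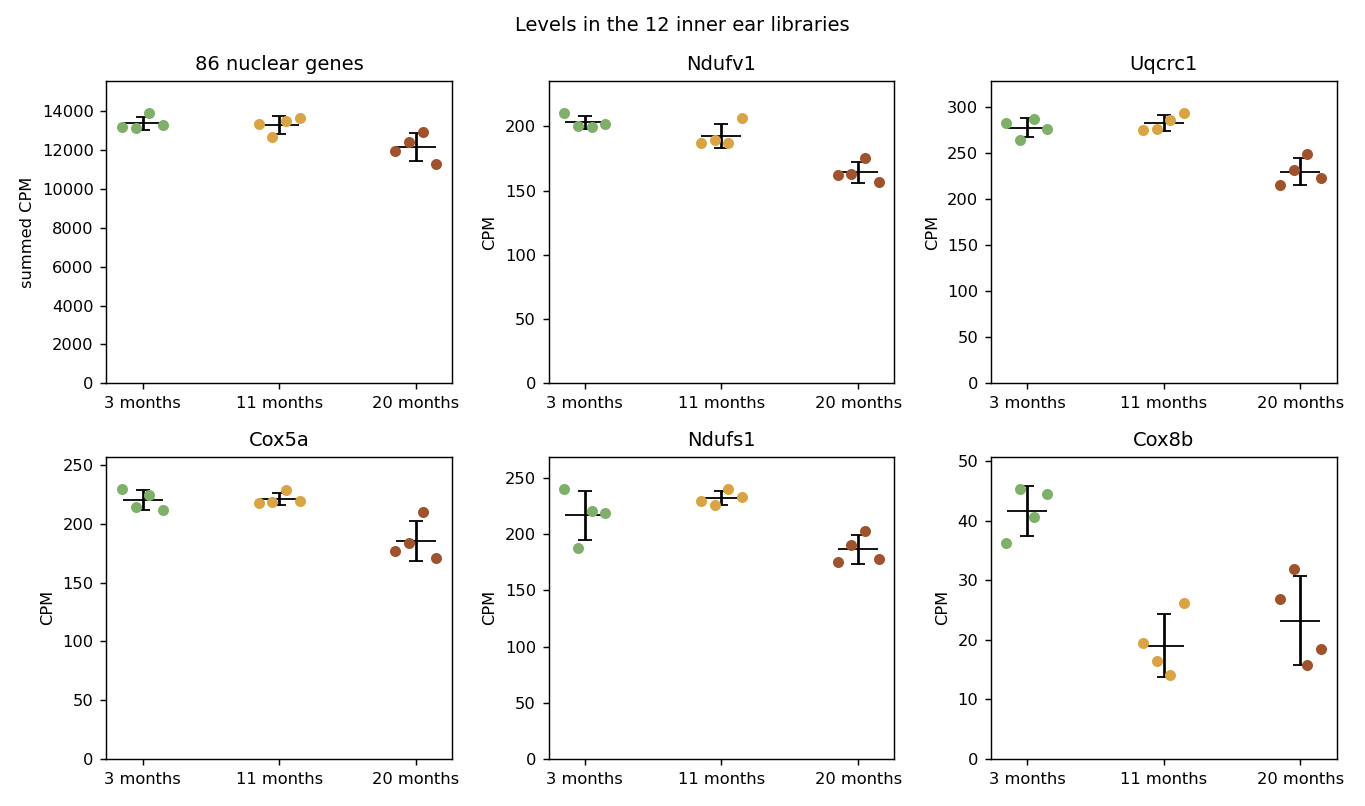
Summed CPM of 86 nuclear members and CPM of Ndufv1, Uqcrc1, Cox5a, Ndufs1 and Cox8b in each of the 12 inner ear libraries; points are mice and bars give mean ± SD of 4. Ndufv1 and Uqcrc1 are lower in all 4 mice of 20 months than in any younger mouse, while Cox8b is highest at 3 months.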

How the data were processed

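Gene counts per library were deposited by the authors, unnormalised, as 1 table for the ear and 1 for the organoids. FPKM values were deposited beside them and equal count divided by transcript length and library total. Per the submitters' processing notes, Trimmomatic, HISAT2, HTSeq and DESeq2 were used with the mm10 build. No label states their versions or settings, or the read length. Counts were tested with edgeR 4.0.16 (filterByExpr, TMM scaling, robust quasi-likelihood test, 1 model per table) in R 4.3.3, with Benjamini-Hochberg adjustment over all genes and a threshold of 0.05. The script was tested on simulated data. Errors beside log2 fold changes are standard errors. CPM use TMM-scaled library sizes. Biological coefficients of variation were 19.8% in the ear and 8.04% in the organoids. Alternatives were DESeq2 1.42.0, limma 3.58.1 on log2(FPKM + 1), no count filter, other scalings, a replicate block, marker scores as covariates and leaving out each library. Members and lists were chosen with earlier results of these data known. Named members are all that passed where 12 or fewer did, otherwise the 3 with the smallest p per complex, plus isoform pairs, the 3 highest and lowest fold changes at 1 CPM or more, and the mitochondrial genes; values of chosen examples are given, and 1 gene that the rule names is not reported here. Sequences come from GENCODE and RefSeq.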

Additional observations from a re-analysis of the deposited data

Results flagged for a closer look

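In 3 of 84 groups of 4 ear libraries checked, over 22 members and their sums, 1 library stood apart from the rest by a gap beyond Dixon's 95% critical value, and chance gives about 1 in 20 such groups. Cox5a was at 229.2 CPM in 11-month replicate 3 and Ndufv1 at 206.2 CPM in 11-month replicate 4, each the highest of its group. Cox6b2 was at 5.39 CPM in 20-month replicate 2, the lowest of its group.

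For 5 members the effect of TNF-α differed between organoids with and without the RBM25 knockdown by the interaction test. The difference in log2 units was 0.24 for Atp5d, -0.47 for ND5, 0.23 for Ndufa8, 0.28 for Ndufs7 and 0.32 for Uqcrc1, with standard errors and adjusted p given above. Of all genes tested 7.54% passed as higher and 4.81% as lower, so the count of 5 does not single out the members. The calls of Atp5d, Ndufs7 and Ndufa8 were lost on leaving out single libraries, as given above, while those of ND5 and Uqcrc1 were kept.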

How the results depend on the processing

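Of 3433 values of named members under alternatives, 3166 kept their direction and side of the threshold, 228 lost a call, 39 gained one and 0 reversed a call; the first number includes 149 uncalled values whose sign changed. The 14 members called between 20 and 3 months became 6 with the replicate block, 23 with DESeq2, 4 with only the libraries compared, 6 with limma, 5 with the muscle and bone score, 3 with the mucosal score and 2 to 22 without single libraries. The 1 between 11 and 3 months became 0 with the block, 2 with DESeq2 or only the libraries compared, 0 with either score and 0 to 1 without single libraries. The 12 between 20 and 11 months became 7 with the block, 19 with DESeq2, 0 with either score, 8 with only the libraries compared and 2 to 21 without single libraries. For most of these ear settings the share over all genes is not given, so the counts do not by themselves single out the members. Organoid counts without single libraries were 52 to 74 for TNF-α against control, 39 to 62 for the knockdown, 65 to 76 for TNF-α in the knockdown, 55 to 66 for the knockdown in TNF-α and 2 to 5 for the interaction. The share over all genes is not given for these organoid counts either, nor for counts at an unadjusted p in any comparison. The interaction's 4 higher and 1 lower became 1 higher and 3 lower with no count filter. For the knockdown against control, limma called 4583 genes higher and 3490 lower, against 3870 and 4488, and of the members 66 and 1. Leaving ribosomal protein genes out of the scaling was chosen after seeing the data. The ratio of mitochondrial to nuclear sums relative to control, with 5 mitochondrial genes, moved to 0.749 for the knockdown and 0.692 for both treatments; without single libraries it ran from 0.960 to 1.006 with TNF-α, 0.813 to 0.848 with the knockdown and 0.706 to 0.741 with both. Deviations of same-numbered ear libraries correlated at -0.27 to 0.23, against -0.24 to 0.25 for other pairs. In the organoids the values were -0.05 to 0.30, against -0.27 to 0.09. There 2 of 18 same-numbered pairs were over 0.1, against 0 of 36 others. Both were control with knockdown, at 0.30 for replicate 1 and 0.23 for replicate 3, while replicate 2 gave 0.02. The main test used no pairing, and the block gave 66, 49, 77, 58 and 4 calls in the organoid comparisons, with no share over all genes given. The causes of these moves were not tested.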
